A study of Bos taurus with 4 samples.

Results

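Protein kinase A is built from catalytic subunits (PRKACA, PRKACB) and regulatory subunits (PRKAR1A, PRKAR1B, PRKAR2A, PRKAR2B), and in sperm its messenger cAMP comes largely from the soluble adenylyl cyclase ADCY10. These 7 genes were chosen by name. Every non-control probe of the array that carried one of the names was taken, which gave 15 of 51282 probes and 6 of 32429 gene names. PRKACA had 3 probes, PRKACB 5, PRKAR1A 3, PRKAR1B 1, PRKAR2A 2 and PRKAR2B 1. No probe carried the name ADCY10, so the soluble cyclase was not analysed here and the results concern the kinase subunits alone. Of the 13 probes listed with a RefSeq transcript, 13 matched a RefSeq gene of the same symbol.

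The study compared sperm RNA of Murrah buffalo breeding bulls with high and with low fertility, classed by field conception rate. The high-fertile group was 2 pools and the low-fertile group 2 pools, each pool holding equal amounts of RNA from 2 bulls, and the ages of the bulls and the bulls in each pool are not given in the sources used here. The RNA came from Percoll-selected sperm, was primed with oligo dT, labelled with Cy3 and hybridized to 4 arrays of 1 slide that carry probes designed for cattle (Bos taurus), so the probes were made for a related species. Each group had its own row of the slide, and row and group cannot be told apart.

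Without cAMP, a pair of regulatory subunits holds a pair of catalytic subunits inactive, and binding of cAMP to the regulatory subunits releases the catalytic ones, which then phosphorylate their substrates. The type I regulatory subunits (PRKAR1A, PRKAR1B) form a mostly soluble enzyme, while the type II subunits (PRKAR2A, PRKAR2B) are held at membranes and fibres by A-kinase anchoring proteins. In sperm, bicarbonate stimulates the soluble cyclase, and the kinase takes part in the activation of motility and in capacitation, the change that makes sperm able to fertilize.

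The probes are 60 bases long and are given with positions on the cattle build HGSC Btau_3.1. The probe sequences below are shown because the results turn on them: the 3 probes with a signal well above background, and 3 dim probes that read inside the transcripts. For the brightest PRKACA probe and the PRKAR1B probe, which may lie in untranslated sequence, only the first 30 bases are given. Capitals in the PRKAR2A and PRKAR1A pair mark bases that are identical when the probes are laid over each other without gaps.
PRKACA A_73_P083976, chr7:9781598-9781657, plus strand: agttttctgagttctaggggtgtgcctgtg
PRKAR1B A_73_108353, no position in the files: tgatgtgtggaccccacctgtttatcacga
PRKAR2A A_73_118061, chr22:52084763-52084822, plus strand: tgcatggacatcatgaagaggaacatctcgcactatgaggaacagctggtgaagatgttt
PRKAR2A A_73_P434966, chr22:52064430-52064489, plus strand: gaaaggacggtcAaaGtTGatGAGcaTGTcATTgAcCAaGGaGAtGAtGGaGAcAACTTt
PRKAR1A A_73_P308751, chr19:63658401-63659208, minus strand: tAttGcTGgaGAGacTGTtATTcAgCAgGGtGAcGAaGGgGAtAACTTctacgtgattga
PRKACB A_73_P339221, chr3:63907520-63921643, minus strand: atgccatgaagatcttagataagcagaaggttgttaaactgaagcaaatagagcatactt

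The PRKAR2A and PRKAR1A sequences shared 31 of 49 overlapping bases (63.3%), which shows how alike the regulatory subunits of different type are in this stretch. The PRKACB probe covers 14124 bases of the genome and the PRKAR1A probe 808, so both read across an exon junction. In the PRKACA probe, 16 of the last 20 bases are T, and 11 probes of the array (0.0215%) held as many T there. Of these 11 probes, 3 (27.3%) were well above background on all 4 arrays, beside 24.5% of all probes.

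Signal depth is given here by the scanner software's mark for a spot well above background, and precision is limited by there being only 4 arrays. The 75th percentile of the processed signal, the brightness after background subtraction, was between 32.7 and 37.1 on the 4 arrays. Probes well above background made up 45.4% and 45.3% of all probes on the high-fertile arrays, while 25640 probes were so on the array of low-fertile pool 1 and 13032 (25.4%) on that of low-fertile pool 2. A probe was tested when a whole group, high-fertile or low-fertile, had it well above background, which held for 41.0% of all probes. Normalized signal is log2 of the processed signal minus the 75th percentile of its array, and every difference is low-fertile minus high-fertile. Pools of 1 group correlated at Pearson's r of 0.981 and 0.980 over 12548 probes, and pools of different groups at 0.924 to 0.935. Only 2 pools stand for each group, and the exact permutation test of a single value cannot give a two-sided p below 0.333.

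Of the 15 subunit probes, 3 were tested: 1 each for PRKACA, PRKAR1B and PRKAR2A. The other 12 probes were well above background on no array, a state shared by 42.7% of all probes, and they included every probe of PRKACB, PRKAR1A and PRKAR2B. Among the tested probes, 1 was lower in the low-fertile pools (PRKAR2A) and 0 were higher at an adjusted p under 0.05 in limma. Over all probes tested, 17.6% were lower and 9.23% were higher by the same rule. With 3 probes tested, a count of 1 is no result about the subunits as a group. No subunit spot was saturated or marked as an outlier by the scanner software, and 0 of the 6 nearest spots of any of them was off by over 2 log2 units.

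**Figure D1:**
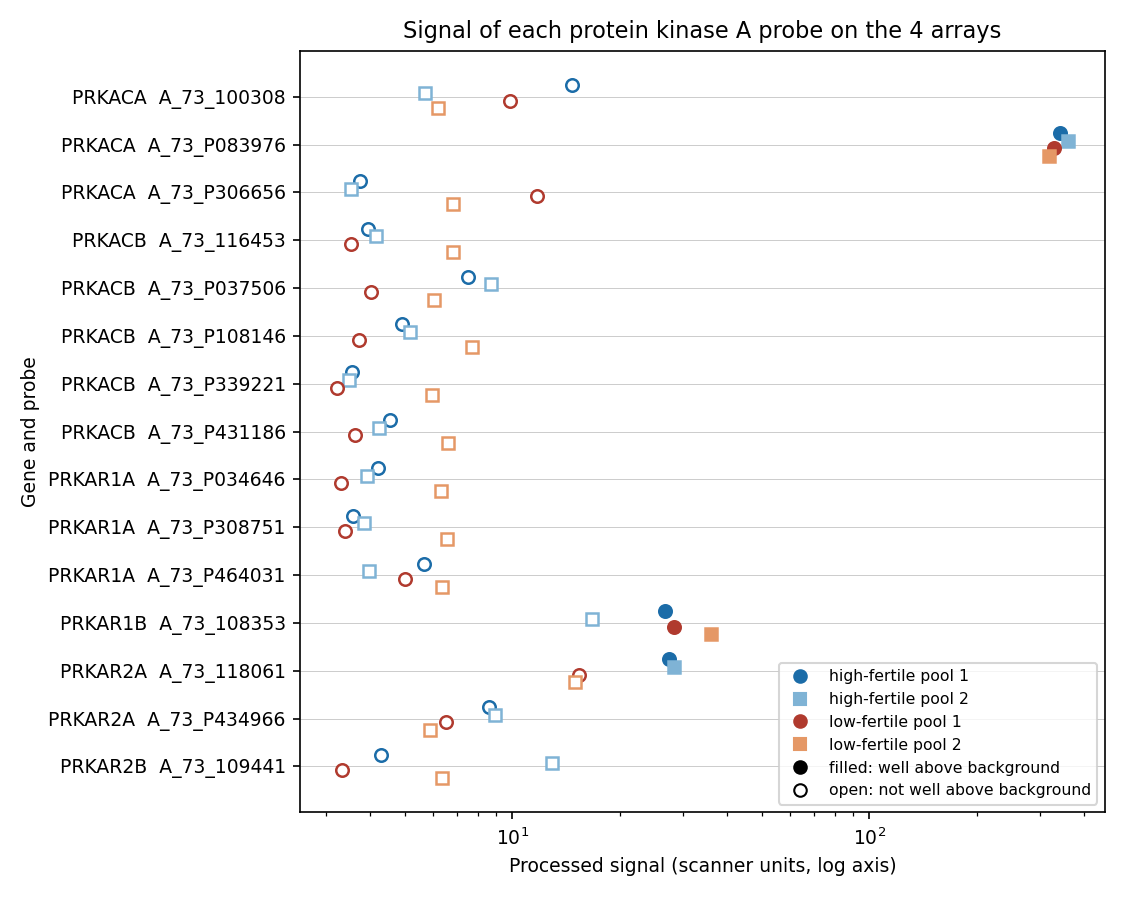
Processed signal (scanner units, log axis) of each of the 15 probes on the 4 arrays, with blue for high-fertile and red or orange for low-fertile pools, and filled points where the spot was well above background. PRKACA A_73_P083976 sits between 318 and 360 on all 4 arrays, while the 12 probes with open points alone lie between 3.22 and 14.7.

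PRKACA, the main catalytic subunit and the one whose sperm-specific form is needed for fertilization, was bright on all 4 arrays and did not pass the test. Its probe A_73_P083976 gave processed signals of 342 and 360 in the high-fertile against 329 and 318 in the low-fertile pools, and the scanner software put their errors between 32.3 and 36.2. The normalized log2 signal was 3.25 ± 0.04 (SD, n = 2) in high-fertile and 3.22 ± 0.09 (SD, n = 2) in low-fertile pools, and the groups overlapped. The difference was -0.03 on the log2 scale (SE 0.15, 95% interval -0.40 to 0.33), with an adjusted p of 0.876 in limma. The interval still allows a change of up to 0.40 downward or 0.33 upward. In size this difference stood at the 5.43 percentile of the 12548 probes that all 4 arrays showed well above background, whose median absolute difference was 0.33. Of those probes 9.9% were called lower and 13.2% higher, 23.1% in all.

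The other PRKACA probes read further along the same transcript and did not show this signal. Probe A_73_100308 gave 14.7 and 5.70 in the high-fertile and 9.82 and 6.21 in the low-fertile pools. Probe A_73_P306656 gave 3.74 and 3.53 in the high-fertile and 11.7 and 6.82 in the low-fertile pools, so both low-fertile pools lay above both high-fertile pools. Its measured difference of 1.38 was the largest among the dim probes, yet none of the 4 spots was well above background, and the difference was 0.17 after normexp background correction. The 3 probes of the gene therefore disagree on whether the transcript is detected, and the call for PRKACA rests on 1 probe.

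PRKACB, the second catalytic subunit, was well above background with none of its 5 probes on any array, and its processed signals ran from 3.22 to 8.72. Probe A_73_P339221, which reads across an exon junction near the start of the transcript, gave 3.55 and 3.49 in the high-fertile against 3.22 and 5.97 in the low-fertile pools. Probe A_73_P037506 gave 7.53 and 8.72 against 4.02 and 6.04, the only PRKACB probe whose groups did not overlap, with a measured difference of -0.63. The other probes had measured differences of 0.17 to 0.40, and low-fertile pool 2 gave the highest signal in all of them.

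Among the regulatory subunits, PRKAR2A carried the one called difference. It encodes the widely expressed type II alpha subunit that A-kinase anchoring proteins hold in place, in sperm along the tail. Probe A_73_118061 gave processed signals of 27.4 and 28.4 in the high-fertile against 15.4 and 14.9 in the low-fertile pools. Both high-fertile spots and neither low-fertile spot were well above background. The groups did not overlap, with the low-fertile pools lower as in 35.5% of all probes tested. The normalized log2 signal was -0.40 ± 0.02 (SD, n = 2) in high-fertile and -1.20 ± 0.10 (SD, n = 2) in low-fertile pools. It fell by 0.79 on the log2 scale (SE 0.15, 95% interval -1.16 to -0.43) with an adjusted p of 0.0146 in limma. Since both low-fertile spots were not well above background, the fold is written as at least 1.73-fold higher in the high-fertile pools. Here and for the genes below such a bound concerns only the dim signal under the reported normalization. It does not cover the error between pools or another background correction, and for PRKAR2A it equals the measured ratio.

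The call on PRKAR2A rested on few arrays and on a route that selects for a difference. The difference was -0.81 with an adjusted p of 0.0675 in limma when high-fertile pool 1 was left out, and -0.78 with 0.0771 when high-fertile pool 2 was, so either omission ended the call. Of the 1562 probes well above background on both high-fertile and no low-fertile array, 1235 (79.1%) were called lower, with a median difference of -1.42. PRKAR2A was thus called as most probes that entered this way were, with a smaller difference than their median. Scaled to the spike-in controls, the difference was -1.18 while the median over all tested probes was -0.39, and with normexp it was -0.29, both with adjusted p under 0.05.

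The second PRKAR2A probe, A_73_P434966, reads an earlier stretch of the transcript. It gave 8.62 and 8.96 in the high-fertile and 6.50 and 5.87 in the low-fertile pools. The groups did not overlap and the measured difference of -0.42 had the same sign as that of the first probe, but none of these spots was well above background. Over all 21894 probes well above background on no array, 12.9% had both low-fertile pools below both high-fertile pools.

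PRKAR1B, a type I regulatory subunit known mainly from brain, was detected at a similar distance from background. Its probe A_73_108353 gave 26.8 and 16.7 in the high-fertile and 28.3 and 36.1 in the low-fertile pools. The spot of high-fertile pool 2 was the only one not well above background. The normalized log2 signal was -0.81 ± 0.49 (SD, n = 2) against -0.12 ± 0.38 (SD, n = 2), with no overlap and the low-fertile pools higher, as in 33.6% of all probes tested. The difference of 0.68 (SE 0.30, 95% interval -0.06 to 1.43) did not pass the test, with an adjusted p of 0.145 in limma. With each pool left out in turn it was 1.03 and 0.33 (high-fertile pools 1 and 2) and 0.95 and 0.42 (low-fertile pools 1 and 2), so its size moved with every pool. Among the 250 probes with both low-fertile and 1 high-fertile spot well above background, 42.0% were called higher, and their median difference was 0.94.

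**Figure D2:**
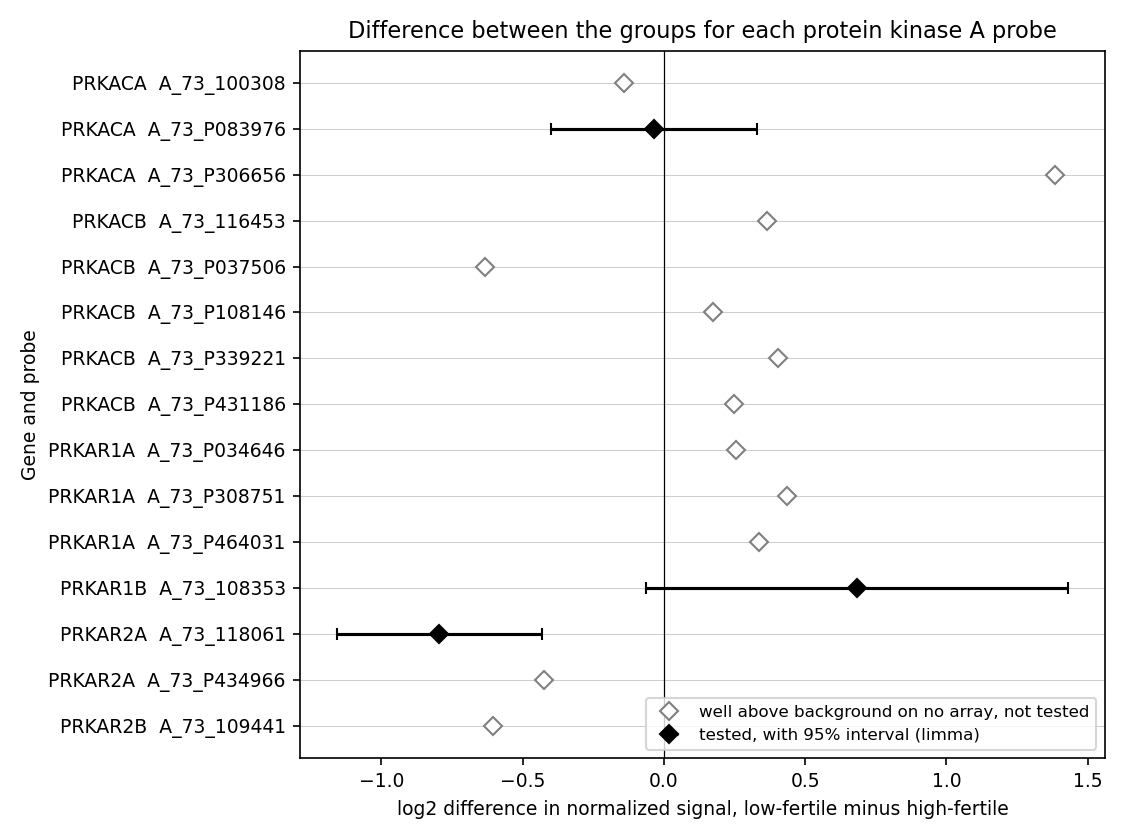
Log2 difference in normalized signal, low-fertile minus high-fertile, for each probe. Black diamonds with bars are the tested probes with 95% intervals from limma, and open diamonds are probes well above background on no array. Only the interval of PRKAR2A A_73_118061 (-1.16 to -0.43) lies on one side of 0.

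PRKAR1A and PRKAR2B stayed near background. PRKAR1A is the type I subunit found in nearly all cells, and its 3 probes gave processed signals of 3.30 to 6.56. Probe A_73_P308751, which shares 31 bases with the PRKAR2A probe above, gave 3.58 and 3.83 in the high-fertile and 3.40 and 6.56 in the low-fertile pools. The other PRKAR1A probes, A_73_P034646 and A_73_P464031, share 51 bases and are not independent readings of the end of the transcript. PRKAR2B, the type II subunit known from fat and brain, had 1 probe, with 4.28 and 12.9 against 3.33 and 6.37. High-fertile pool 2 gave the highest signal, the measured difference was -0.60, and the groups overlapped.

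Among the 12 dim probes, the 2 low-fertile arrays stood at opposite ends. Their median processed signal was 3.66 for low-fertile pool 1 and 6.35 for pool 2, with 4.41 and 4.18 on the high-fertile arrays between them. In normalized log2 signal, low-fertile pool 1 was the lowest of the 4 in 9 of these probes and low-fertile pool 2 the highest in 7. On that scale the same array was highest in 48.9% of all 21894 probes well above background on no array, whose median processed signals were 5.33 and 5.61 on the high-fertile and 5.16 and 6.68 on the low-fertile arrays. In 8 dim probes the measured difference was above 0 and in 4 below it, from -0.63 to 1.38. In 3 probes the groups did not overlap. The low-fertile pools were below in 2 of them and above in 1, against 12.9% and 17.2% of all such probes. No expression is read from these probes, and a low signal does not show that the transcript is absent from buffalo sperm.

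Base composition moved with detection. The 3 tested subunit probes each held 45% G and C bases, and the 12 dim ones 35% to 45% with a median of 36.7%. Over the whole array, 14.7% of probes with at most 35% G and C were tested, 36.6% of those up to 45%, 67.7% of those up to 55% and 78.1% of those above. The part of base composition, and of mismatches between cattle probes and buffalo RNA, in which subunits were detected was not tested.

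**Figure D3:**
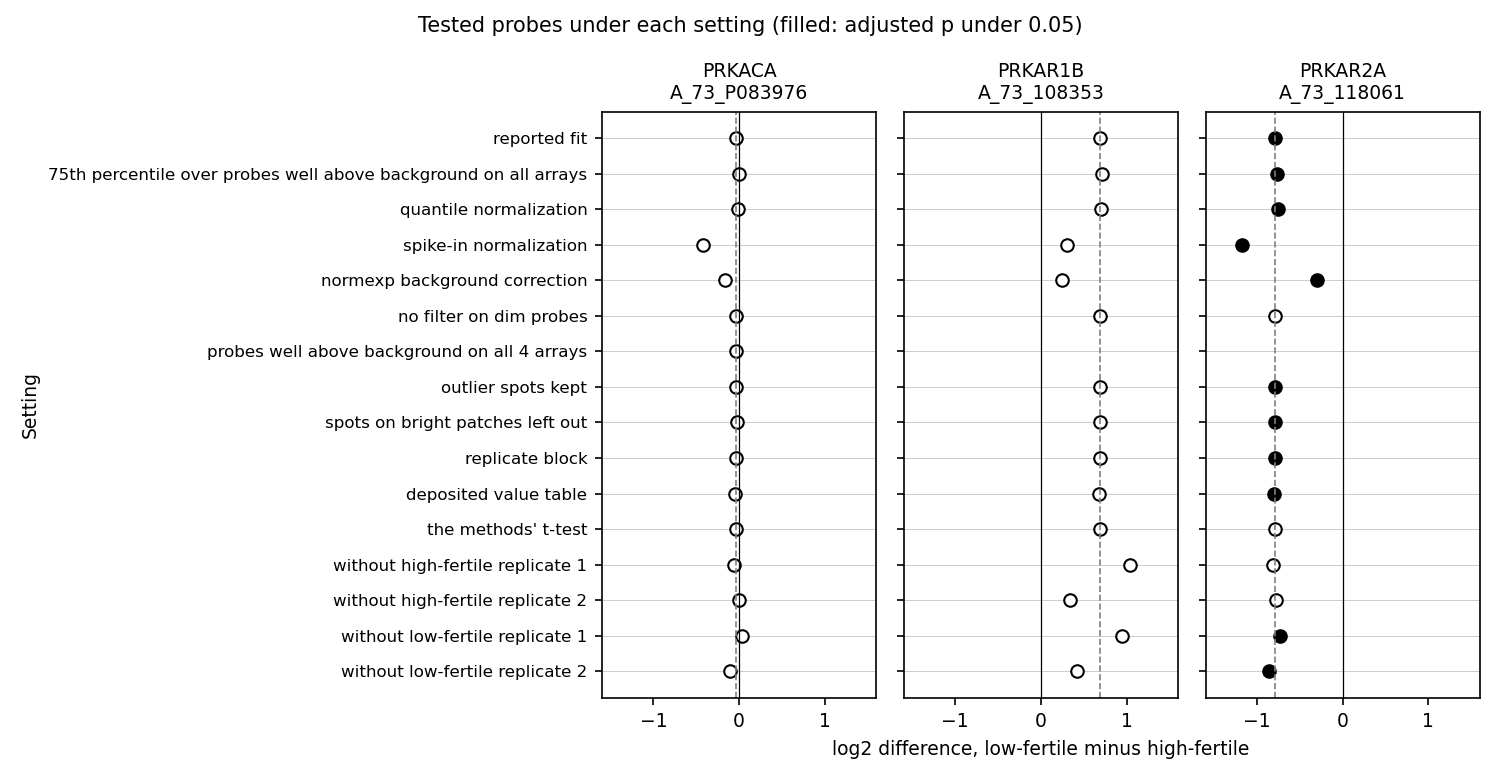
Log2 difference (low-fertile minus high-fertile) of the 3 tested probes under the reported fit and each other processing, with filled points where the adjusted p was under 0.05 and a dashed line at the reported value. PRKACA stays between -0.42 and 0.03, PRKAR1B between 0.24 and 1.03 and PRKAR2A between -1.18 and -0.29.

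Over the other ways of processing, PRKAR2A stayed below 0 in all 14 that gave a value and passed the test in 10. PRKAR1B stayed above 0 and passed in 0 of 14, with adjusted p in limma or the methods' t-test from 0.0809 to 0.48. PRKACA passed in 0 of 15, with adjusted p from 0.0557, under spike-in normalization, to 0.998. For PRKACA, which had the only probe above background on all arrays, 3 genes had the most similar pattern among 10583 genes, by the root mean square difference of centred log2 signal over the 4 arrays. They were GNG3 (0.0099), CXCL10 (0.01) and CHTF18 (0.0123), but 1528 genes lay within 0.1, as a flat pattern is common.

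Around the kinase, 107 genes in 6 lists were followed, of which 97 were on the array and 54 were tested by their brightest probe. Of these, 7 were lower, 1 was higher and 46 did not pass the test in limma, beside 16.3% lower and 9.6% higher over all genes. The median difference was -0.08, against 0.01 over all genes tested. Of the 54 genes, 25 entered through the high-fertile pair of arrays alone. Among the 28 well above background on all 4 arrays, 2 were lower and 1 higher, with a median of 0.10 against 0.15 for all such genes, of which 9.33% were lower and 13.2% higher.

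Among the anchors of the kinase, 3 of 11 tested genes were lower, beside 16.3% of all genes tested. Of the 3 anchors well above background on all 4 arrays, 1 was lower. With so few tested, these counts are no result about the anchors as a group. AKAP10, an anchor that binds both types of regulatory subunit, gave 66.8 and 57.0 in the high-fertile and 41.3 and 36.2 in the low-fertile pools. The groups did not overlap, the difference was -0.59 (SE 0.16) with an adjusted p of 0.0445, and its second tested probe gave -0.88 with 0.0121. Without any 1 of the pools the brightest AKAP10 probe lost its call (0 of 4 omissions called, difference -0.71 to -0.47). NBEA, a large anchor known from neurons, had 60.9 and 52.2 against 19.8 and 18.6, and its difference of -1.47 had an adjusted p of 0.00378 in limma, with -0.96 and 0.00831 at its other tested probe and measured differences of -0.48 and 0.40 at its probes above background on no array. AKAP7, a membrane anchor, had 33.8 and 37.4 against 3.14 and 5.95, and neither low-fertile value was well above background. It was at least 3.23-fold higher in the high-fertile pools, with an adjusted p of 0.00498, but its difference after normexp was only -0.69. Its other probes were well above background on no array and had measured differences of 0.25 and 0.50. Normexp also moved NBEA to -0.53 and AKAP10 to -0.35, both still called. NBEA, AKAP7 and the anchors named at the end of this paragraph were named after their values were seen. The same holds for CA12, CFTR, SLC4A4, GNAS, PKIG, PRKX, CREB1, CREM and FHL5 below. Of the 24 anchors on the array, 11 were tested, with a median of -0.23, or 0.23 among the 3 well above background on all arrays. Of the tested anchors 8, NBEA and AKAP7 among them, entered through the high-fertile pair alone, a filter that favours lower values in the low-fertile pools. By their brightest probe, 11 of the 24 anchors were well above background on no array, a state shared by 42.7% of all probes. AKAP3, AKAP4, ROPN1, ROPN1L and SPA17, proteins of the sperm fibrous sheath or its PKA-docking partners, were among them. So were AKAP1, AKAP2, AKAP5, AKAP9, CMYA5 and ARFGEF2, while CABYR was well above background on 1 array.

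The list of bicarbonate and pH partners held the transporters and enzymes that feed the soluble cyclase and their ion channels. In it 4 of 14 tested genes were lower, beside 16.3% of all genes tested. Of its 8 genes well above background on all 4 arrays 1 was lower, beside 9.33% of all such genes. KCNMA1, a calcium-activated potassium channel, gave 88.0 and 102 in the high-fertile and 47.3 and 52.5 in the low-fertile pools. Its difference of -0.84 (SE 0.18) had an adjusted p of 0.024 in limma, while its second tested probe gave -0.21 with 0.549. CFTR, an anion channel opened by protein kinase A, gave 50.3 and 42.6 against 17.6 and 24.8, a difference of -1.06 with an adjusted p of 0.0339. SLC4A4, a sodium bicarbonate cotransporter, was at least 1.70-fold higher and CA12, a membrane carbonic anhydrase, at least 1.58-fold higher in high-fertile bulls, with adjusted p of 0.0184 and 0.0271. After normexp the difference was -0.26 for SLC4A4, -0.13 for CA12 (adjusted p 0.139 in limma, no longer called), -0.43 for CFTR and -0.42 for KCNMA1. The other SLC4A4 probes, neither of them tested, had measured differences of 0.40 and -0.30. The first of them, opposite in sign, was well above background on 2 arrays, as many as the called probe, and the second on none. Of the 4 omissions of 1 pool, KCNMA1, CFTR and CA12 were called in 1 each and SLC4A4 in 2. CFTR, SLC4A4 and CA12 were tested only because both high-fertile arrays had them above background, as for 6 of the tested genes of this list, so their differences were favoured by the filter. Of the 19 genes on the array 14 were tested, and their median was -0.13, or 0.17 among the 8 well above background on all arrays.

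No tested gene that makes or breaks down cAMP was called, beside 25.9% of all genes tested, in either direction. With 9 and 6 genes tested, this does not show that these lists were unchanged. In the synthesis list, 9 of 14 genes were tested, with 0 called and a median of -0.17. Of these 9 genes 5 entered through the high-fertile pair alone, and the median of the 4 above background on all arrays was 0.0073. GNAS, the stimulatory G protein, had a difference of 0.22 (adjusted p 0.287 in limma). In the breakdown list of phosphodiesterases, 6 of 14 were tested, with 0 called and a median of -0.09, or 0.045 for the 4 above background on all arrays, and 2 entered through the high-fertile pair alone. In the list of cAMP-responsive transcription, which holds factors and their coactivators, 5 of 9 were tested, with 0 called and a median of 0.35. CREB1, CREM and FHL5 of this list were well above background on no array.

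Of the inhibitors and other effectors of cAMP, 9 of 17 were tested, with 1 higher, 0 lower and a median of 0.17, or 0.087 for the 6 above background on all arrays, and 3 entered through the high-fertile pair alone. CNGA2, a subunit of a cyclic nucleotide-gated channel known from olfactory neurons, gave 198 and 182 in the high-fertile and 485 and 407 in the low-fertile pools. It was higher by 1.31 (SE 0.15) with an adjusted p of 0.00399, and it was called in 4 of 4 omissions of 1 pool. PKIG, an inhibitor that binds the free catalytic subunit, gave 31.5 and 30.7 against 35.3 and 33.2, a difference of 0.23 with an adjusted p of 0.282. PRKX, a catalytic kinase related to PRKACA, gave 34.4, 31.3 and 31.6 in 3 pools and 1454 in low-fertile pool 1. Its difference of 2.79 (adjusted p 0.246) was 0.12 with an adjusted p of 0.655 in limma without that pool. The spots of PRKX on 3 arrays, that of low-fertile pool 1 among them, had at least 2 of their 6 nearest spots off by over 2 log2 units, and with such spots left out no difference could be computed.

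**Figure D4:**
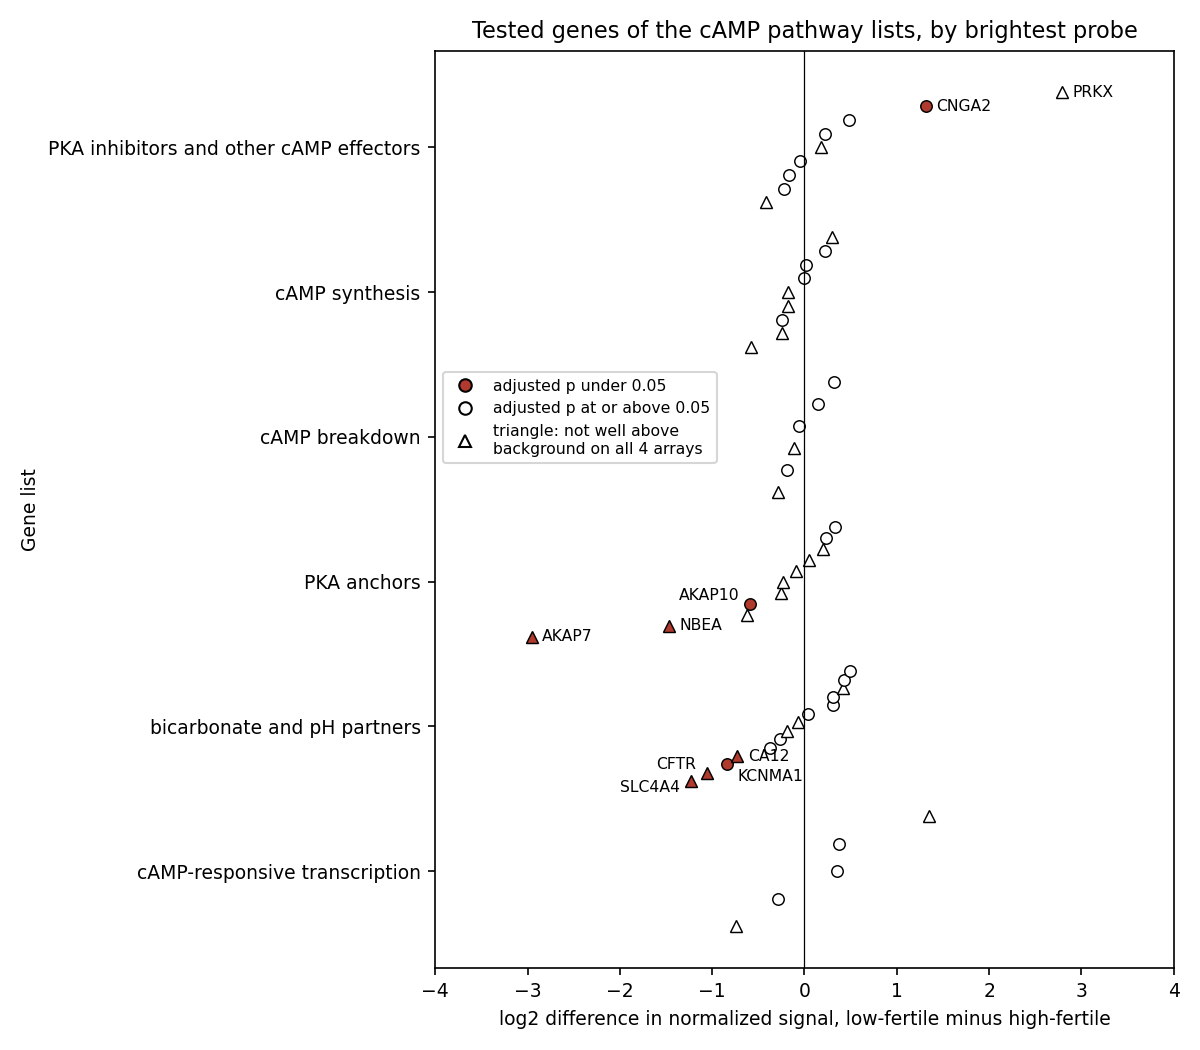
Log2 difference (low-fertile minus high-fertile) of the 54 tested genes of the 6 lists, each by its brightest probe. Red symbols mark the 8 genes with an adjusted p under 0.05, of which 7 lie below 0, and triangles mark genes not well above background on all 4 arrays.

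Markers of sperm and of other cells were measured on the same arrays. Of the 20 sperm and spermatid markers, 4 (ACR, ODF1, PRM1 and TNP1) were well above background on all 4 arrays, and SMCP, AKAP4, LDHC, PGK2 and CRISP2 were so on none. Their summed signal, in units of the array's 75th percentile, was 24.7 to 28.9 in high-fertile and 25.9 to 28.7 in low-fertile pools. The larger sum of each group was that of pool 1. PRM2 gave 180 in high-fertile pool 1 against 9.58 to 14.6 in the other pools. PRM3 gave 168 in low-fertile pool 1 against 10.3 to 16.1 in the others. Of the 7 sperm markers tested 1 was called, PRM1, higher by 0.67 (adjusted p 0.0231 in limma). The others ran from -0.18 (ODF1) to 0.51 (ODF2). Of the 14 leukocyte markers, 11 were tested, and their summed signal was 735 to 752 in high-fertile and 865 to 952 in low-fertile pools. LYZ, PTPRC and CD3D made up 91.5% to 94.8% of this sum on each array, and LYZ alone, with a difference of 0.38 and an adjusted p of 0.117, 45.5% to 50.7%. The other 11 markers summed to 56.2 and 62.1 in high-fertile and 54.8 and 49.4 in low-fertile pools. PTPRC was higher by 0.78 (adjusted p 0.016) and CD3D fell by 1.05 (adjusted p 0.0102), while CD3E, CD8A and S100A9 were well above background on no array. Epithelial markers summed to 26.7 to 26.8 and 29.3 to 32.6 with EPCAM and CDH1 on no array. CLDN7, the 1 called of 7 tested, was higher by 0.80 (adjusted p 0.0133 in limma), and the others ran from -0.08 (KRT19) to 0.50 (CLDN4). Sertoli and Leydig markers summed to 17.7 to 21.6 and 22.1 to 25.3 with CLDN11 on no array. Of the 7 tested, 2 were called: DHH was higher by 0.99 (adjusted p 0.00808 in limma) and STAR by 0.79 (adjusted p 0.0212). The others were not called, with differences of -0.27 (HSD3B1), -0.24 (INSL3), 0.09 (AMH), 0.25 (CYP11A1) and 0.26 (CYP17A1). Over all genes tested, 9.6% were called higher and 16.3% lower. The part of other cells in the PRKAR2A difference was not tested. In such bulk RNA, fewer cells of a type and less RNA per cell cannot be told apart.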

How the data were processed

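Sperm RNA from 2 high-fertile and 2 low-fertile pools was measured on 4 single-colour Agilent arrays (design 29411). The authors read the images in Agilent Feature Extraction, version 11.5.1.1, then normalized the signals in GeneSpring GX 12.6. The deposited scanner output holds linear intensity, background-subtracted, and the marks for spots well above background. The deposited value table holds log2 values shifted to the 75th percentile, and was an alternative.

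Values were recomputed from the scanner output in Python 3.11.15. After outlier spots were dropped, log2 signals were averaged over the spots of each probe and shifted by the array's 75th percentile. A mark counted when at least 0.5 of the spots of a probe carried it. The 21028 probes that a whole group had above background entered limma 3.58.1 (R 4.3.3), with Benjamini-Hochberg adjustment over all of them, and the fit was tested on simulated data. A gene outside the kinase subunits was represented by its brightest probe. The rule for named pathway genes took those past an adjusted p of 0.05, above background on all 4 arrays and with pools of the groups apart, and the report says which others were named after their values were seen. The results of 1 marker list are not reported here. The members and lists were chosen with earlier results of these data known. Every sample column was used. Symbols were matched to RefSeq (ARS-UCD2.0), whose coordinates were not used. No slide block could be fitted, since 1 slide and 1 scan hold all arrays. The bulls came in separate pools, and p-values measure the spread between the pools.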

Additional observations from a re-analysis of the deposited data

How the results depend on the processing

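Spike-in normalization gave 6924 lower and 567 higher probes over all, and 16 lower pathway genes. Normexp background correction gave 11 lower and 6 higher pathway genes. Without a filter on dim probes 0 subunit probes were lower, 0 probes were lower and 0 higher over all (9278 with an unadjusted p under 0.05), 0 pathway genes were lower and 0 higher (14 unadjusted), and PRKAR2A had -0.79 with an adjusted p of 0.188. With only probes above background on all 4 arrays, 1 subunit probe was left to test, 0 were lower (0 with an unadjusted p under 0.05), 1626 probes were lower and 2716 higher over all (3691 and 1940 in the reported fit), and 2 pathway genes were lower and 3 higher. The methods' t-test after Benjamini-Hochberg adjustment called 0 subunit probes lower (1 unadjusted), 0 lower and 0 higher over all (6084 unadjusted) and 0 and 0 pathway genes (11 unadjusted), with PRKAR2A at -0.79 and an adjusted p of 0.096. With the median over the probes of a gene, 3 pathway genes were lower and 2 higher.

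With each pool left out in turn, 0 to 1 subunit probes were lower in limma (unadjusted 1 to 2 where 0), 2045 to 3598 probes were lower and 599 to 1388 higher over all, and 2 to 6 pathway genes were lower and 1 to 3 higher. The difference of PRKAR2A was -0.86 to -0.73, and it was not called without high-fertile pool 1 or without high-fertile pool 2. PRKACA had -0.10 to 0.03 and turned direction without low-fertile pool 1 (0.032, adjusted p 0.907 in limma). Same-numbered pools did not deviate together (r 0.0054 over 21023 probes). With them as a replicate block, PRKAR2A had -0.79 with an adjusted p of 0.0233 in limma, PRKAR1B 0.68 with 0.15, and 2 pathway genes were higher. The cause of these changes was not tested. Signals near background limit all but the PRKACA probe.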
